A study of Mus musculus with 4 samples.

Results

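The complement genes described here are the 9 listed by symbol as complement components and receptors, out of 21885 genes in the files: C1qa, C1qb and C1qc, C1ra and C1s1, C4b, C3, C3ar1 and C5ar1. They were followed in 4 heart sections by spatial transcriptomics (Visium), in which each spot of a slide captures the RNA of the small piece of tissue above it and so holds several cells. Each section came from a separate heart of a Collagen1a1-GFP+ mouse, a reporter line in which regulatory sequence of the collagen gene drives GFP in fibroblasts, and all mice, the control included, carried the reporter and were 8 to 12 weeks old. There was 1 section from a control heart, 1 taken 3 days after myocardial infarction (3 dpi) and 2 taken at 5 dpi, of which 1 is labelled female (section F) and 1 male (section M). Values for the infarcted sections are given in the order 3 dpi, section F, section M. Infarction was produced by permanent ligation of the left anterior descending coronary artery.

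Complement is a chain of plasma and tissue proteins that marks dead cells and foreign surfaces for removal. In its classical pathway the recognition protein C1q, built from the A, B and C chains encoded by C1qa, C1qb and C1qc, docks on a target and activates the proteases C1r and C1s. These cleave C4 and C2, the resulting enzyme cleaves C3, and the C3b fragment coats the target for uptake by phagocytes, while the small fragments C3a and C5a act on the receptors C3ar1 and C5ar1 of myeloid cells. Circulating complement comes mostly from the liver, but macrophages are the main makers of C1q and fibroblasts and mesothelial cells also transcribe C1r, C1s, C3 and C4. An infarct, in which dead cardiomyocytes are cleared by recruited phagocytes and replaced by scar, is a classic setting in which complement is deposited.

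The sections kept 1146 to 1741 spots, with a median of 4968 to 6935 UMIs (unique molecules of RNA counted) per spot. Mitochondrial UMIs made up 40.1% of the control section, which also had the lowest median depth, and 21.4%, 13.3% and 14.3% of the infarcted sections. Levels are given as CPM, which sets a gene's UMIs against all UMIs outside the mitochondrial genes, and are not corrected for transcript length because the libraries count transcript ends. The UMIs of the Y-linked genes Ddx3y, Eif2s3y, Kdm5d and Uty went against the sex labels: 704 were found in section F, 1 in section M and 0 in each of the others. Pairs of sections shared 328 to 867 spot barcodes, which name positions on a slide and not cells. In each infarcted section the spots were divided by the share of their UMIs from 12 cardiomyocyte genes into the infarct zone (IZ), where that share was under 0.5 of the section's 90th percentile in connected patches of at least 10 spots, the border zones BZ2 (within 2 spots of the IZ) and BZ1 (3 to 4 spots away), and the remote zone (RZ). The IZ held 882, 1061 and 684 spots and the RZ 380, 200 and 533 spots. All 12 cardiomyocyte genes, which drew the zones, were lower in CPM and all 7 macrophage markers higher in IZ than in RZ in every infarcted section. In spots, more cells of a type and more RNA per cell cannot be told apart.

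The bases before the start sites of C1qb and C1qc are shown because these neighbouring genes moved together through the infarct and are transcribed in macrophages. They are 250-base windows from RefSeq on build GRCm38.p6, read 5′ to 3′ on the strand of the gene, and the capitals mark GAGGAA, the core of the purine-rich box that the myeloid factor PU.1 can bind, or its reverse complement TTCCTC. For C1qb the window is chr4:136886201-136886450 on the minus strand, and for C1qc it is chr4:136892915-136893164 on the minus strand.
C1qb: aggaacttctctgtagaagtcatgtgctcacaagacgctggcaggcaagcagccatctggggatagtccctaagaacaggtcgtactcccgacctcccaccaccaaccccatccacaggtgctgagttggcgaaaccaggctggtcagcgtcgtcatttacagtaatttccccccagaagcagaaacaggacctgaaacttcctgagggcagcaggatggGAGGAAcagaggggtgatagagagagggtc
C1qc: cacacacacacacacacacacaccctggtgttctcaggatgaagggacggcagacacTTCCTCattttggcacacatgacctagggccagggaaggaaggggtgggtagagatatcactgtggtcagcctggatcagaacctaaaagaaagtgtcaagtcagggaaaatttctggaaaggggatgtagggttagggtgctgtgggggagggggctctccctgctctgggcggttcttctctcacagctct
Searched on both strands, GAGGAA was present in 7639 of 32851 promoter windows of this length, or 23.3%. It was not found in the windows of C1ra, C1s1, C3, C3ar1 and C5ar1, and C1qa and C4b were not listed. A match describes the letters of the window and is not evidence of binding.

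In the infarcted hearts the C1q chains and both receptors were several-fold above the control heart, C4b was raised to a lesser degree at 3 dpi, and C1ra and C1s1 lay nearer to it. C1qb, the B chain, was at 155 CPM in the control section, 955 CPM at 3 dpi, 1728 CPM in section F and 1552 CPM in section M. C1qa, the A chain, was at 159, 658, 1190.4 and 826 CPM, and C1qc, the C chain, at 122, 538, 925 and 745 CPM. All 3 infarcted sections were thus above the control for each chain, by 4.14- to 11.1-fold. C3ar1, the receptor for C3a, was at 10.2 CPM in the control and 120, 177 and 123 CPM after infarction. C5ar1, the receptor for C5a, was at 5.61 CPM in the control, on 21 UMIs, and 59.7, 70.9 and 32.5 CPM after infarction. C4b, a mouse form of C4, was at 12.3, 29.1, 83.4 and 59.5 CPM, with both 5 dpi sections above the 3 dpi section. C3, the hub on which all complement pathways converge, was at 46.2 CPM in the control, 74.0 CPM at 3 dpi and 228 and 219.5 CPM in sections F and M, so that the rise over the control passed 2-fold only at 5 dpi. C1ra, a gene for the protease C1r, was at 12.8, 16.4, 32.5 and 28.5 CPM, and C1s1, for its partner C1s, at 25.4, 20.5, 39.6 and 28.7 CPM. With 1 control section there is no test of these differences, and the part of its high mitochondrial share in them was not tested. By a 2-fold limit in every infarcted section, 6 of the 9 genes were higher than in the control, against 24.6% of the 9304 genes compared, and none was lower, against 5.19%. With CPM taken over all UMIs, mitochondrial ones included, 7 of the 9 were higher, C3 being added, against 42.6% of 8648 genes. None was lower on that scale, against 1.55%. Reads of C4b, C1ra and C1s1 may be affected by their near-identical neighbours (C4a, C1rb and C1s2), which makes their levels less certain than those of the others.

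Within the infarcted hearts the C1q chains and both receptors rose into the IZ, whereas C1ra, C1s1, C4b and C3 did not pass the test. C1qb was at 351, 381 and 330 CPM in the RZ, and at 1289, 2040.2 and 2394 CPM in their IZ. The lowest IZ value was more than 3 times the highest RZ value. C1qa went from 306, 381 and 245 CPM in the RZ to 822, 1374 and 1223 CPM in the IZ, and C1qc from 230, 271 and 217 CPM to 695, 1079 and 1110 CPM. Neither gene overlapped between the zones. In edgeR's quasi-likelihood test on UMIs summed per zone and section, with section as a block and Benjamini-Hochberg adjustment over 10013 genes, the log2 fold change of IZ over RZ was 2.0 (SE 0.16, adjusted p = 7.61e-10) for C1qb. By the same test it was 1.49 (SE 0.16, adjusted p = 8.05e-08) for C1qa and 1.60 (SE 0.15, adjusted p = 2.04e-08) for C1qc, with each chain higher in 3 of 3 sections. TMM scaling, which the test uses, places log2 changes of IZ over RZ lower than ratios of CPM by a shift of -0.40, and those of BZ2 over RZ by -0.16.

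C3ar1 had the steepest rise of the 9 genes into the IZ. It was at 33.1, 27.5 and 15.3 CPM in the RZ, 51.0, 55.7 and 46.7 CPM in BZ2 and 171, 213 and 196 CPM in the IZ, with no overlap between IZ and either other zone. The log2 fold change of IZ over RZ was 2.62 (SE 0.21, adjusted p = 1.46e-09 in edgeR's test). C5ar1 was at 22.6, 17.9 and 6.45 CPM in the RZ and 82.6, 84.2 and 49.8 CPM in the IZ. Its log2 fold change was 1.92 (SE 0.20, adjusted p = 7.19e-08 in edgeR's test), and it was lowest in section M in both zones. Neutrophils also carry C5ar1, and 6 of their markers summed to 23.3, 80.0 and 25.8 CPM in the RZ and 266, 252 and 230 CPM in the IZ. Most of this sum was S100a8 and S100a9, which monocytes also transcribe, while Cxcr2 had no UMI in any RZ and was at 2.81, 1.2 and 1.45 CPM in the IZ. The 3 neutrophil genes with enough UMIs to be tested were called higher in the IZ in edgeR's test, and the part of these cells in the receptor levels was not tested. In all, 5 of the 9 genes were called higher in IZ than in RZ, where 27.2% of all genes tested were, and none was called lower, where 25.2% were. The median log2 change was 1.49 over the 9 genes and 0.08 over all genes tested.

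**Figure D1:**
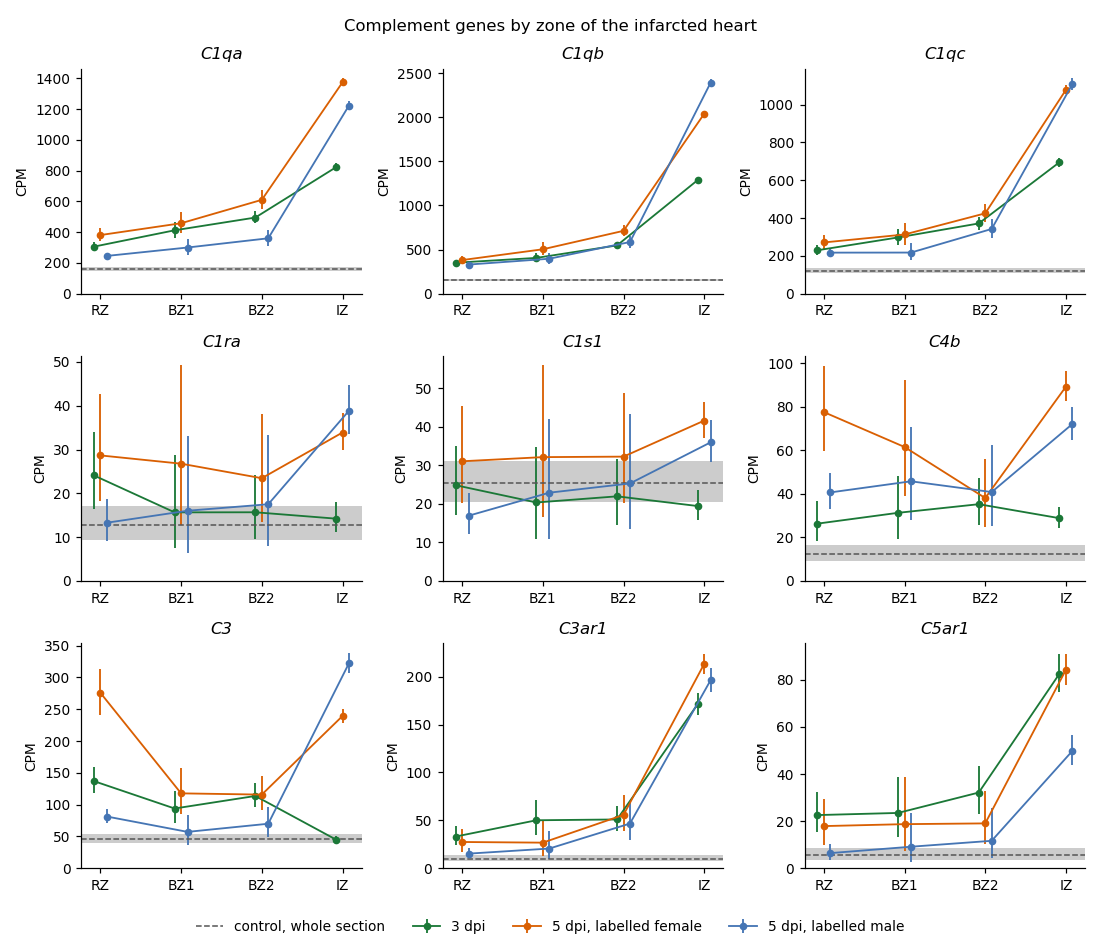
Levels of the 9 complement genes in CPM by zone. Each point is 1 zone of 1 section, bars are 95% Poisson intervals of the count, colours mark sections, and the dashed line with its grey band is the whole control section with the same interval. The C1q chains, C3ar1 and C5ar1 climb from RZ to IZ in each of the 3 infarcted sections, while the C3 lines cross, with an IZ level of 45.1 CPM at 3 dpi and 322 CPM in section M.

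The genes for the proteases and their substrates had no common direction between the zones. In CPM, C3, C1ra and C1s1 were lower in the IZ than in the RZ at 3 dpi and higher in section M, while C4b was 1.10-, 1.15- and 1.77-fold higher in the IZ. After TMM scaling the C4b ratio was above 1 in section M alone, with log2 values of -0.27, -0.16 and 0.38. C3 was at 137, 276 and 81.4 CPM in the RZ and at 45.1, 239 and 322 CPM in the IZ, so it was lower in the IZ at 3 dpi, slightly lower in section F and higher in section M. Its log2 ratio of IZ over RZ in CPM was -1.60, -0.20 and 1.99, and the test over sections gave a log2 fold change of -0.10 (SE 0.41, adjusted p = 0.862 in edgeR's test). Without section M, C3 was called lower in the IZ, with a log2 fold change of -1.09 (adjusted p = 0.0269 in edgeR's test), which makes 1 of the 9 genes called lower in place of none. C4b was at 26.3, 77.6 and 40.7 CPM in the RZ and 28.9, 89.3 and 72.1 CPM in the IZ, a log2 fold change of 0.03 (SE 0.20, adjusted p = 0.926 in edgeR's test). C1ra was at 24.1, 28.7 and 13.3 CPM in the RZ and 14.2, 33.9 and 38.9 CPM in the IZ, a log2 fold change of 0.05 (SE 0.28, adjusted p = 0.893 in edgeR's test). C1s1 was at 24.8, 31.0 and 16.9 CPM in the RZ and 19.4, 41.6 and 36.0 CPM in the IZ, a log2 fold change of 0.05 (SE 0.21, adjusted p = 0.870 in edgeR's test). For these genes the zones overlapped between sections. For C1ra and C1s1 the ratio in CPM lay below 1 at 3 dpi and above 1 in both 5 dpi sections.

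Between the levels at the 2 ends, the border next to the infarct held intermediate amounts of C1q and C3ar1. In BZ2 the sections had 547, 712 and 586 CPM of C1qb, 495, 610 and 360 CPM of C1qa and 372, 425 and 342 CPM of C1qc. In BZ1, farther out, C1qb was at 406, 503 and 396 CPM, between RZ and BZ2 in 3 of 3 sections, and C3ar1 at 50.1, 26.8 and 20.6 CPM. In BZ2 each chain was above its own RZ in 3 of 3 sections, by 1.47- to 1.87-fold, and for C1qb and C1qc the BZ2 values did not overlap those of the RZ. The log2 fold change of BZ2 over RZ was 0.63 (SE 0.15, adjusted p = 0.0125) for C1qb, 0.51 (SE 0.16, adjusted p = 0.0478) for C1qc and 0.90 (SE 0.26, adjusted p = 0.0325) for C3ar1 in edgeR's test. C1qa missed the threshold with 0.50 (SE 0.16, adjusted p = 0.0614 in edgeR's test). C5ar1, at 32.1, 19.1 and 11.7 CPM in BZ2, had a log2 fold change of 0.39 (SE 0.28, adjusted p = 0.478 in edgeR's test). So 3 of the 9 genes were called higher in BZ2, against 3.83% of genes tested, and none was called lower, against 4.58%. This count fell to 0 without either 5 dpi section and to 1 with DESeq2's test, and rose to 4 without the 3 dpi section and with the zone limit at 0.4. When 1 section was left out the log2 fold changes stayed at 0.58 to 0.72 for C1qb and 0.50 to 0.53 for C1qc, while that of C3ar1 ran from 0.60 to 1.22. Over all alternative settings C1qb ran from 0.18 to 0.79 and C1qc from 0.029 to 0.67. Both were lowest with the zone limit at percentile 1 of the control, which left 17 RZ spots in section F. C3 was lower in BZ2 than in the RZ in 3 of 3 sections, at 114, 116 and 70.0 CPM, with a log2 fold change of -0.68 (SE 0.45, adjusted p = 0.432 in edgeR's test). Without the 3 dpi section this became -0.93 (adjusted p = 0.0387 in edgeR's test). From BZ2 to the IZ, the same 5 genes as between RZ and IZ were called higher, against 14.7% of genes tested, and none lower, against 18.4%. The log2 fold changes of IZ over BZ2 ran from 0.99 for C1qa (adjusted p = 3.81e-05 in edgeR's test) to 1.71 for C3ar1 (adjusted p = 1.44e-06 in edgeR's test). Without the 3 dpi section C3 and C4b were also called higher in the IZ than in BZ2, with log2 fold changes of 1.43 and 0.82 (adjusted p = 6.38e-05 and 0.00692 in edgeR's test).

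**Figure D2:**
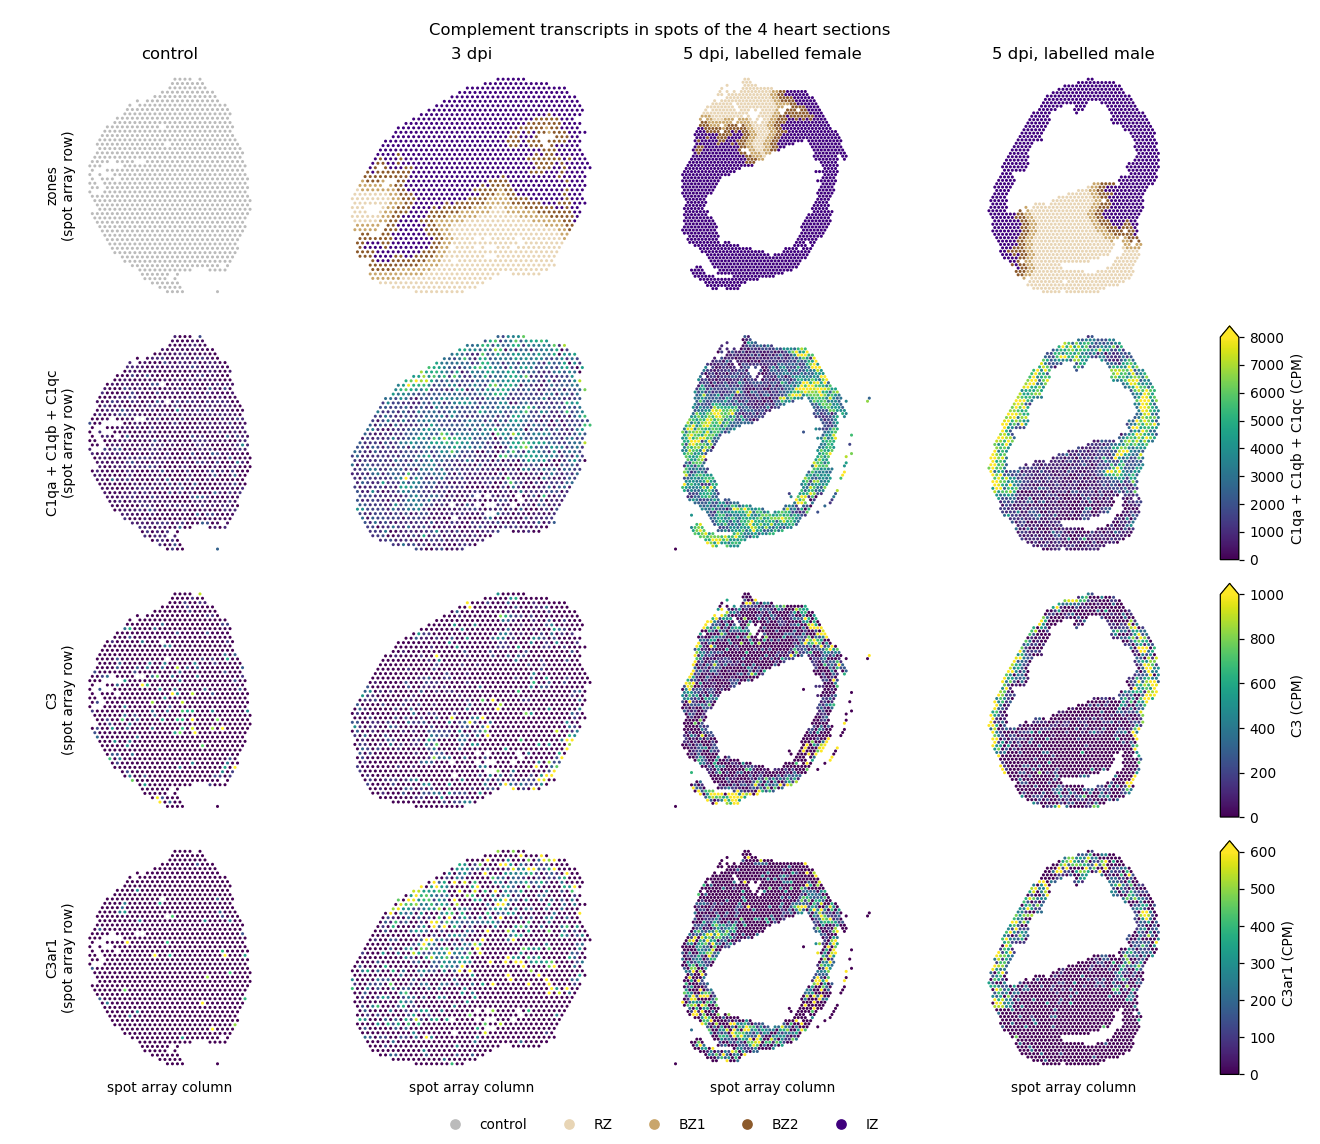
Spot maps of the 4 sections: zones in the top row, then CPM per spot of the 3 C1q chains summed, of C3 and of C3ar1, each on 1 colour scale for all sections that is capped at its top value. Axes are spot array columns and rows, and spots left out of the zones are blank in the top row. C1q fills the IZ of every infarcted section. C3ar1 is more scattered there, with a UMI in 49.8%, 59.5% and 63.7% of IZ spots, while C3 at 5 dpi is densest along the outer side of the infarct wall.

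In the remote myocardium the C1q chains and both receptors were nearer to the control than in the infarct, while C3 at 3 dpi and in section F was farther from it. C1qb was 2.26-, 2.45- and 2.12-fold above the control in the RZ of the 3 sections, and C4b 2.14-, 6.31- and 3.31-fold. For C1qa the ratios were 1.93, 2.40 and 1.55, and for C1qc 1.88, 2.21 and 1.77. C3 was 2.96-, 5.97- and 1.76-fold above the control, and C5ar1 4.02-, 3.19- and 1.15-fold, so in both section M was the nearest to the control. C3ar1 was 3.26-, 2.70- and 1.51-fold above it. The C1ra ratios were 1.88, 2.23 and 1.04, and those of C1s1 were 0.978, 1.22 and 0.667. At least 2-fold in every RZ, 2 of the 9 genes (C1qb and C4b) were higher, against 4.35% of 8581 genes compared, and none was lower, against 0.245%. Without section M, 5 of the 9 passed this limit.

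At 3 dpi the infarct held less C3, C4b and C1ra than at 5 dpi. In the IZ, C3 was at 45.1 CPM at 3 dpi against 239 and 322 CPM at 5 dpi, C4b at 28.9 CPM against 89.3 and 72.1 CPM, and C1ra at 14.2 CPM against 33.9 and 38.9 CPM. These 3 of the 9 genes were 2-fold or more below either 5 dpi section at 3 dpi, against 1.6% of the 9232 genes compared, and none was at least 2-fold higher, against 1.88%. C1s1, at 19.4 CPM against 41.6 and 36.0 CPM, lay just short of this limit. The cell type markers also differed: the 8 fibroblast markers summed to 11287 CPM in the IZ at 3 dpi against 21258 and 19102 CPM at 5 dpi, and 4 mesothelial markers to 6.21 CPM against 76.7 and 16.5 CPM. Most of the fibroblast sum was collagen, with Col1a1, Col1a2 and Col3a1 at 3143, 3823 and 3539 CPM at 3 dpi. The collagens, Dcn, Lum and Dpt were lowest at 3 dpi. Pdgfra was not, at 44.3 CPM against 42.9 and 31.6 CPM, nor was Tcf21, at 15.4 CPM against 12.4 and 22.5 CPM. Per 100 UMIs of the fibroblast genes Pdgfra, Tcf21, Dcn, Lum and Dpt, C3 was at 5.77 against 20.002 and 23.7, C4b at 3.69 against 7.46 and 5.31, and C1ra and C1s1 together at 4.31 against 6.31 and 5.51. Of these 3 ratios, that of C3 alone lay below both 5 dpi sections by 2-fold or more. C1q also had its lowest IZ level at 3 dpi, and C3ar1 too (171 against 213 and 196 CPM), while C5ar1 at 82.6 CPM was near section F at 84.2 CPM and above section M at 49.8 CPM. The 3 dpi group is 1 section, so time and the single heart cannot be told apart.

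C1q followed the loss of cardiomyocytes in steps through the tissue. When spots were binned by their cardiomyocyte share as a part of the section's 90th percentile, the C1q sum rose from 873 CPM in spots at 0.75 and over to 1454, 2019, 2621 and 3740 CPM in bins down to under 0.1 at 3 dpi. In section F it rose from 1049.6 to 4929.8 CPM and in section M from 779 to 5553 CPM, with each bin above the one before. The control had 429 CPM at 0.75 and over and 626 CPM at 0.5 to 0.75, and 1 control spot with a lower share was left out. C3ar1 ended at 261, 253 and 243 CPM in the spots under 0.1, from 35.2, 28.9 and 15.3 CPM at 0.75 and over. C5ar1 ended at 130, 99.3 and 62.4 CPM, from 19.3, 18.4 and 5.69 CPM. C3 had no common course: at 3 dpi it went from 125 CPM at 0.75 and over to 29.8 CPM at 0.1 to 0.25 and 59.8 CPM under 0.1, and in section M from 80.1 to 377 CPM. C4b was higher under 0.1 than at 0.75 and over in 3 of 3 sections, going from 30.1 to 34.9, from 73.5 to 105.3 and from 40.7 to 76.3 CPM. It rose with each bin in section M, but in between fell to 22.0 CPM at 0.1 to 0.25 at 3 dpi and to 40.0 CPM at 0.5 to 0.75 in section F. C1ra and C1s1 ended lower at 3 dpi and higher at 5 dpi: C1ra went from 19.9 to 12.7, from 25.4 to 35.5 and from 14.0 to 43.6 CPM, and C1s1 from 22.7 to 21.0, from 31.5 to 40.8 and from 19.7 to 41.8 CPM. A bin with fewer cardiomyocyte UMIs has more room in CPM for every other gene, so these courses describe composition together with level.

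**Figure D3:**
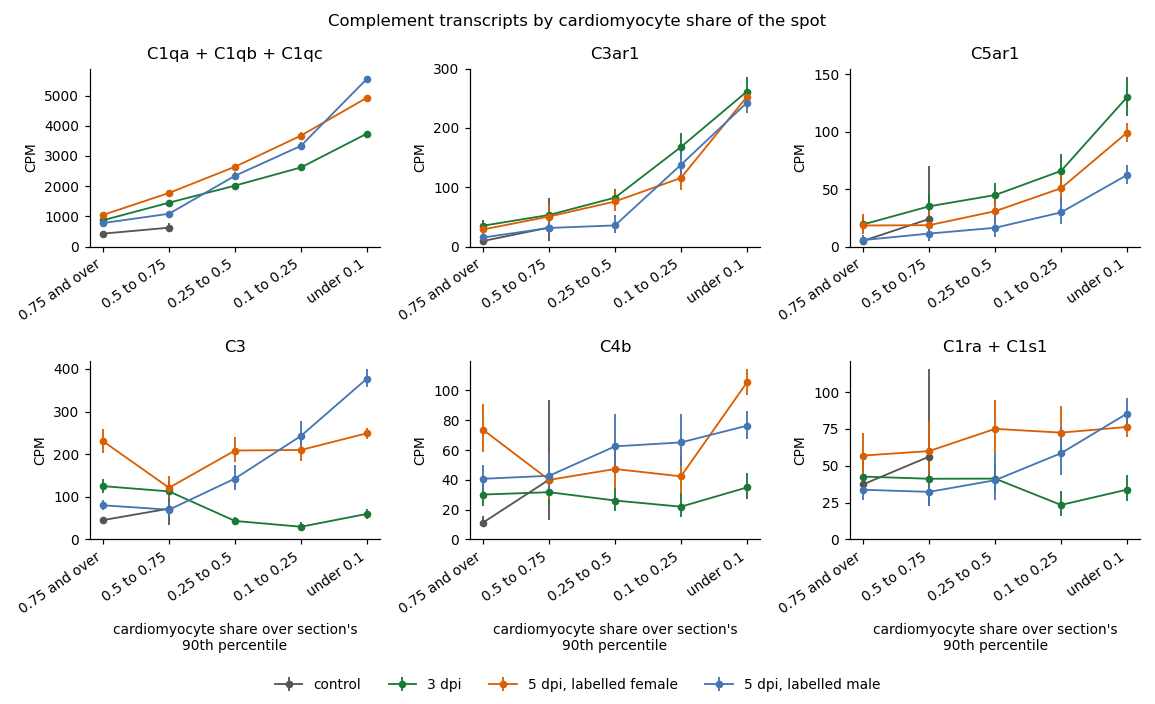
CPM of the summed C1q chains, of C3ar1, C5ar1, C3 and C4b, and of C1ra and C1s1 summed, in spots binned by cardiomyocyte share relative to the section's 90th percentile, from high to low share; points are bins of 1 section and bars are 95% Poisson intervals. The C1q sum at the lowest share is 3740, 4929.8 and 5553 CPM in the 3 infarcted sections, the top bin of each.

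The A, B and C chains, of which C1q contains equal numbers, did not keep 1 ratio in their RNA. In the control section there were 0.978 UMIs of C1qb for 1 of C1qa (95% interval 0.871 to 1.10). In the RZ this ratio was 1.15, 1.0 and 1.34, and in the IZ it was 1.57, 1.49 and 1.96. The ratio was thus higher in the IZ in 3 of 3 sections, and highest in both zones of section M. C1qb made 50.6% of the C1q UMIs in that IZ, against 35.6% in the control, while C1qc stayed between 23.5% and 28.0% in the IZ of the 3 sections and the control. These intervals cover counting error only.

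The level of C1q and C3ar1 relative to macrophage markers depended on which markers were counted. Per 100 UMIs of Csf1r, Adgre1, Fcgr1 and Mertk, genes that mark macrophages, there were 658 C1q UMIs in the control section (95% interval 576 to 756). The RZ held 709, 692 and 923 and the IZ 654, 782 and 884 in the 3 infarcted sections, a mean log2 ratio of IZ over RZ of -0.0015 (SD 0.16, n = 3 sections). C3ar1 was at 15.3 per 100 macrophage UMIs in the control, 26.5, 18.4 and 17.8 in the RZ and 39.9, 37.1 and 36.7 in the IZ, a mean log2 ratio of 0.88 (SD 0.25, n = 3). C5ar1 was at 8.47 in the control, 18.1, 12.0 and 7.51 in the RZ and 19.2, 14.7 and 9.31 in the IZ, a mean log2 ratio of 0.23 (SD 0.12, n = 3). With Cd68, Lyz2 and Ctss added to the markers, the mean log2 ratio was -0.82 for C1q. Lyz2 made up most UMIs of this longer list in both RZ and IZ. With this longer list, tried for the receptors after the data were seen, it was 0.06 (SD 0.37) for C3ar1, at -0.27, 0.00084 and 0.46 in the 3 sections, and -0.59 (SD 0.28) for C5ar1, so the excess of C3ar1 in the IZ over the shorter list was not kept. C3, C4b, C1ra and C1s1 together, per 100 UMIs of the 5 fibroblast genes above, had log2 ratios of -0.82, -0.50 and 0.82, with a mean of -0.17 (SD 0.87, n = 3). The mean was -0.66 without section M and 0.16 without the 3 dpi section, so that its direction rested on single sections. It was -0.73 with the zone limit at percentile 1 of the control and -2.22 with the collagens Col1a1, Col1a2 and Col3a1 added to the markers. With 3 sections an exact test of a ratio cannot pass the threshold, and none was run. Of 6 markers of resident macrophages, 2 (Folr2 and Mrc1) were higher in the IZ in each section, and the list summed to 160, 172 and 138 CPM in the RZ and 196, 178 and 121 CPM in the IZ. All 5 markers of recruited monocytes were higher there in each section. The part of these cells in the C1q level was not tested.

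**Figure D4:**
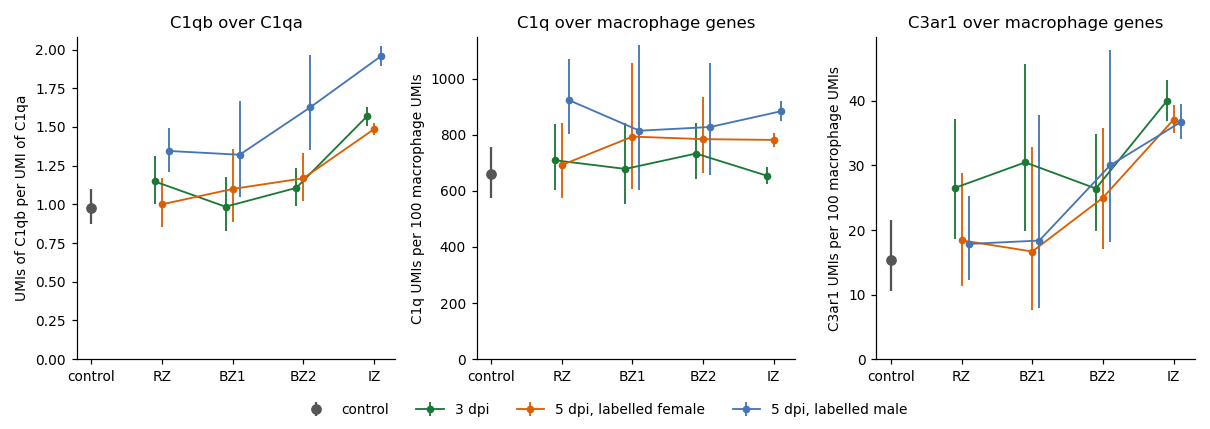
UMIs of C1qb per UMI of C1qa (left), and C1q (middle) and C3ar1 (right) UMIs per 100 UMIs of 4 macrophage genes, in the control section and by zone. Points are sections and bars are 95% intervals of the ratio from counting error. C1q per 100 macrophage UMIs lies between 654 and 923 in RZ and IZ, while C3ar1 goes from 17.8 to 26.5 in RZ up to 36.7 to 39.9 in IZ.

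Inside the infarct the C1q chains and both receptors differed more with macrophage than with fibroblast share, C1ra and C1s1 on average more with fibroblast share, and C3 and C4b with both. When the IZ spots of each section were put in 4 equal bins by the UMI share of the 7 macrophage markers (those 4 genes with Cd68, Lyz2 and Ctss), C3ar1 was higher in the top bin than in the lowest by a log2 difference of 2.02 (SD 0.11, n = 3 sections), C5ar1 by 1.64, C1qb by 1.60, C1qc by 1.39 and C1qa by 1.16. The cardiomyocyte share was lower in the top bin as well, going from 3.43% to 0.790%, from 1.78% to 0.144% and from 2.04% to 0.127% of UMIs, and less from the lowest to the top fibroblast bin, from 2.22% to 1.43%, from 1.13% to 0.303% and from 1.48% to 0.374%. Their part in these differences was not tested. In the IZ Lyz2 alone was at 3484, 5682 and 4976 CPM, of 5142, 7932 and 7068 CPM for the 7 macrophage markers. The macrophage bins thus mostly follow the share of Lyz2. Most UMIs of the 8 fibroblast markers were those of the collagens Col1a1, Col1a2 and Col3a1. Binned by the share of these 8 markers, C3ar1 differed by -0.21 and C5ar1 by -0.68, while C1s1 differed by 1.04 and C1ra by 0.98. With macrophage share C1s1 differed by 0.52 (SD 1.02) and C1ra by 0.38 (SD 1.43), both with a wide spread. For C1ra it was -1.20, 0.81 and 1.55 in the 3 sections, and for C1s1 -0.32, 0.22 and 1.66. In section M C1ra thus differed less with fibroblast share (1.26), and C1s1 about as much (1.67). C4b and C3 were higher toward both, by 1.03 and 1.29 with macrophage share and by 0.82 and 0.72 with fibroblast share. Across tiles of the IZ (34, 40 and 24 tiles), the chains had a mean Pearson r over sections of 0.79 to 0.86 with each other, and 0.50 to 0.68 with C3ar1. The latter had a median of 17.5 UMIs per tile at 3 dpi, under the 20 set for describing a gene over tiles, a level that the C1q chains alone reached in every section. Of 2633 genes compared, those most like C1qb were Tyrobp (0.85), a signalling adaptor of myeloid receptors, Wfdc17 (0.83) and Trem2 (0.81), a lipid-sensing receptor of phagocytes. For C1qc they were Wfdc17 (0.83), Tyrobp (0.78) and Apoe (0.74), which encodes a lipid carrier made by macrophages, and for C1qa Ptpn18 (0.72), Apoe (0.71) and Wfdc17 (0.71). Tiles of 1 section share a library, and these values are descriptions with no test.

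At 5 dpi C3, C4b, C1s1 and C1ra were higher at the outer face of the infarct wall than at its cavity face. C1q and C3ar1 differed little between these faces. This division was chosen after the maps had been seen: both 5 dpi sections enclose a cavity, and IZ spots within 2 steps of the outside or of the cavity were taken as the outer and the cavity rim (338 and 236 outer spots, 225 and 185 cavity spots). C3 was at 454 CPM at the outer rim, 174 CPM between the rims and 120 CPM at the cavity rim in section F, and at 566, 266 and 136 CPM in section M. The outer rim exceeded the cavity rim 3.77- and 4.16-fold. For C1s1 the levels were 76.5, 31.0 and 22.2 CPM and 55.7, 38.5 and 12.2 CPM, and for C4b 202, 49.5 and 38.6 CPM and 89.4, 69.2 and 57.6 CPM, falling from outside to inside in both sections. C1ra was 1.96- and 2.76-fold higher at the outer rim. The C1q sum differed by 1.04- and 1.19-fold and C3ar1 by 1.05- and 1.18-fold, with C5ar1 between these and C3 at 1.61- and 1.35-fold. The mesothelial markers Msln, Upk3b, Wt1 and Krt19, of the heart's outer cell layer, summed to 219, 29.4 and 6.25 CPM and 35.6, 11.54 and 2.71 CPM along the same path. The fibroblast list was 1.39- and 1.296-fold and the macrophage list 1.37- and 1.71-fold higher at the outer rim, and the part of these cells in the C3 level was not tested. In section M 623 spots without the tissue flag, 193 of them in the cavity, hold RNA but were treated as empty, so its rims follow the flag. Section F has no such spots. No test was made, since the rims were drawn after the maps had been seen.

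C3 was also patchy outside the infarct. In the RZ it was at 178 CPM in spots at the tissue edge against 127.1 CPM inside at 3 dpi, at 499 against 177 CPM in section F and at 166 against 61.0 CPM in section M. The control had 56.4 and 44.0 CPM. The 4 mesothelial markers moved the same way, on 0 to 18 UMIs in each RZ part, at 7.73 CPM at the edge against 0 CPM inside (95% upper bound 3.45), 27.3 against 5.16 CPM and 22.8 against 9.0 CPM. In the control they were at 22.3 and 6.84 CPM, and their part in the C3 level was not tested. The 5% of RZ spots richest in C3 held 47.3%, 37.7% and 44.1% of its UMIs, against 26.6%, 18.5% and 21.6% for C1qb, which had more UMIs there. C1qc, with 305, 227 and 539 RZ UMIs against 182, 231 and 202 for C3, was at 25.6%, 19.8% and 23.7%. The part of the count in these shares was not tested.

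**Figure D5:**
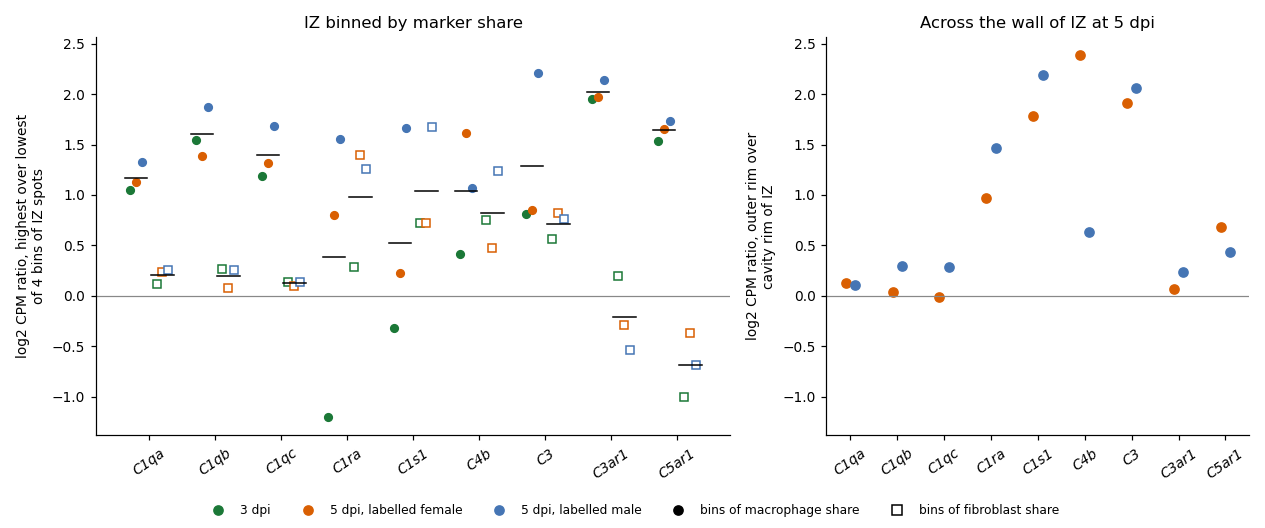
Log2 differences within the infarct zone. The left panel sets the highest against the lowest of 4 equal bins of IZ spots by the share of 7 macrophage and of 8 fibroblast markers (points are the 3 sections, lines their means), and the right panel sets the outer rim against the cavity rim of the wall in the 2 sections at 5 dpi. C3ar1 lies near 2 with macrophage share and C3 near 2 at the outer rim.

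Of 44 other complement genes in the files, chosen as a list of the pathway, 18 had enough UMIs to be tested, 26 had too few, and 8 of these had no UMI in the infarcted sections, so changes in them were not detectable at this depth. By edgeR's test 6 of the 18 were higher and 5 lower in IZ than in RZ, shares near the 27.2% and 25.2% of all genes tested. The complement receptor subunits rose with C3ar1: Itgb2, the shared beta chain of the C3b-fragment receptors CR3 and CR4, was at 16.6, 23.9 and 12.5 CPM in the RZ and 121, 149 and 140 CPM in the IZ (log2 fold change 2.65, SE 0.22, adjusted p = 2.23e-09 in edgeR's test). Itgam, the alpha chain of CR3, went from 6.02, 8.36 and 7.65 CPM to 48.3, 52.6 and 35.8 CPM, a log2 fold change of 2.15 (SE 0.24, adjusted p = 2.02e-07 in edgeR's test). Both chains are also carried by neutrophils, whose marker values are given above. Cfp, which encodes properdin, the stabiliser of the alternative pathway enzyme, went from 28.6, 28.7 and 13.3 CPM to 104, 102 and 82.3 CPM, a log2 fold change of 1.75 (adjusted p = 1.69e-06 in edgeR's test). Of the protective genes, Cd59a, whose product blocks the membrane attack complex, was at 122 CPM in the control, 114, 126.6 and 125 CPM in the RZ and 45.9, 40.3 and 44.0 CPM in the IZ. Its log2 fold change was -1.89 (SE 0.14, adjusted p = 3.75e-10 in edgeR's test). C1qbp, a mitochondrial protein that can also bind C1q, fell by 1.11 on the log2 scale (adjusted p = 7.46e-06 in edgeR's test).

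Clu, which encodes clusterin, a chaperone that also restrains the terminal complex, peaked in the border. It was at 518 CPM in the control, 1635, 3049 and 2109 CPM in the RZ, 4543, 12573 and 8858 CPM in BZ2 and 3785, 3922 and 5280 CPM in the IZ. The BZ2 values did not overlap those of the RZ, and BZ2 was above the IZ of its own section in 3 of 3. The log2 fold change was 1.72 for BZ2 over RZ (SE 0.19, adjusted p = 1.06e-05) and -1.12 for IZ over BZ2 (SE 0.19, adjusted p = 7.27e-05) in edgeR's test. None of the 9 genes peaked in BZ2 in all 3 sections.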

How the data were processed

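Spatial gene expression (Visium) was measured in 4 cryosections of 10 µm, 1 per heart. The authors ran Space Ranger (version 1.3.1 per the file headers) and deposited raw UMI counts per gene and spot. The methods name an Ensembl-based reference with GFP added and the labels name mm10, so no coordinates were taken from the files. Spots with the tissue flag were kept at 500 UMIs, 250 genes and at most 50% mitochondrial UMIs, a 95% Poisson interval was given to single counts, and intervals cover counting error only. Zones were drawn as described, the UMIs of each zone in each section were added up, and these 12 sums were tested with edgeR 4.0.16 (R 4.3.3, glmQLFit and glmQLFTest, TMM, filterByExpr by zone, section as a block) with Benjamini-Hochberg adjustment over all genes at 0.05. The scripts were tested on simulated data. p-values rest on how far the zone differences vary between sections, and not on level differences between sections, which the block takes up. The control and 3 dpi have 1 section each and no test against them was made; there, a 2-fold limit with at least 10 CPM in 1 value was used. All 9 genes are named in the tested comparisons, and of the other complement genes those called in IZ against RZ with at least 50 CPM. Tiles were 6 array rows by 12 columns with at least 10 IZ spots, compared on log2(CPM + 1). The members and lists were chosen with earlier results of these data known, and 1 gene of the lists is not reported here and entered no list value. Alternatives were other zone limits, spot filters, scalings, DESeq2 1.42.0, no section block, longer marker lists and leaving out each section. The 5 dpi section labelled male has 623 spots without the tissue flag, which were left out.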

Additional observations from a re-analysis of the deposited data

Results flagged for a closer look

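Section M (5 dpi, labelled male) has 623 spots without the tissue flag, of which 193 lie in the cavity, and the complement genes were above the control section there. In these spots C1qa was at 776 CPM, C1qb at 1137 CPM, C1qc at 660.4 CPM, C1ra at 31.0 CPM, C1s1 at 35.4 CPM, C4b at 78.1 CPM, C3 at 271 CPM, C3ar1 at 143 CPM and C5ar1 at 58.3 CPM, over 2229014 UMIs outside the mitochondrial genes. They entered no comparison.

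For C1ra the log2 CPM ratio of IZ over RZ was below 0 at 3 dpi and above 0 in both 5 dpi sections, and the 5 dpi mean exceeded the 3 dpi value by 1.65. For C1s1 the same difference was 1.11. For C3 the ratio was below 0 in section F and above 0 in section M, a difference of 2.19 between sections whose Y-linked genes go against their labels. None of these differences was tested. After TMM scaling the C1ra ratio of section F was -0.12, so the directions at 3 and 5 dpi do not all oppose on that scale.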

How the results depend on the processing

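Of the recomputed counts and ratios, 126 kept to the main value within their limit and 16 did not. The 5 genes called higher in IZ than in RZ, and the 5 called higher in IZ than in BZ2, were called in 13 of 13 settings. The count of 3 genes higher in BZ2 than in RZ became 1 with the zone limit at 0.6, 0 with a limit set at the control's percentile 1, 1 with DESeq2 and 0 with no section block, and ranged from 0 to 4 when 1 section was left out. The percentile 1 limit left 245, 17 and 88 spots in the RZ, in place of 380, 200 and 533. The count lower in IZ than in RZ ranged from 0 to 1 and that lower in BZ2 from 0 to 1 when 1 section was left out, and the latter was 1 with no filter on low counts, with C3 as the gene each time. The count at least 2-fold higher in every RZ than in the control, 2, became 1 with the limit at 0.6 and ranged from 2 to 5 when 1 section was left out. C1q per macrophage UMI, at a mean log2 ratio of -0.0015, became -0.34 with the percentile 1 limit and -0.82 with the longer macrophage list. With that list C3ar1 went from 0.88 to 0.064 and C5ar1 from 0.23 to -0.59, alternatives chosen after seeing the data. C3, C4b, C1ra and C1s1 per fibroblast UMI, at -0.17, ranged from -0.66 to 0.16 when 1 section was left out and became -2.22 with the longer fibroblast list, which adds genes that rise in the scar.

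No called gene changed sign, but the fold changes of C1ra, C1s1, C4b and C3, which did not pass the test, did so 29 times. For IZ over RZ, the percentile 1 limit gave log2 changes of -0.26 for C1ra, -0.094 for C1s1 and -0.33 for C4b. The limit at 0.6 gave -0.079 for C1s1 and -0.20 for C4b, the limit at 0.4 gave -0.044 for C1s1, and keeping all tissue spots gave -0.049 for C4b. DESeq2 gave -0.041 for C1ra, -0.0086 for C1s1 and -0.017 for C4b. C3, at -0.10 with TMM scaling, became 0.30 with library totals and 0.19 with totals outside cardiomyocyte genes. Scalings shift all genes alike, so the sign of C3, that of the main value included, depends on the scaling used. For BZ2 over RZ, C1s1 was -0.088 with the limit at 0.6, -0.16 with the percentile 1 limit and -0.029 with DESeq2. For IZ over BZ2, C1s1 was -0.12 with the limit at 0.4 and C4b -0.069 with the percentile 1 limit. When 1 section was left out, IZ over RZ ranged from -0.60 to 0.58 for C1ra, -0.32 to 0.39 for C1s1, -0.19 to 0.14 for C4b and -1.09 to 0.50 for C3. BZ2 over RZ ranged from -0.64 to 0.015 for C1ra, -0.24 to 0.20 for C1s1 and -0.68 to 0.14 for C4b, and IZ over BZ2 from -0.075 to 0.19 for C1s1, -0.029 to 0.82 for C4b and -0.24 to 1.43 for C3. The causes of the other sign changes were not tested.

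Zones were compared within each section, with section as a block, and hearts of different groups could not be paired further. C1ra, C1s1, C4b, C3ar1 and C5ar1 rest on few UMIs in the control and RZ, so smaller differences than those called could not be seen there.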
